A study of Homo sapiens with 2 samples.

Results

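The annexins are a family of calcium-dependent phospholipid-binding proteins, and the 8 described here (ANXA1, ANXA2, ANXA3, ANXA4, ANXA5, ANXA6, ANXA7 and ANXA11) were followed by symbol among the 36601 genes counted in single human embryonic stem cells. They were chosen with their levels by library, by mitochondrial class and in cells with transcripts of IL24, PLA2G2A or TPRX1 already known. Those levels are therefore given as a description, and no test was made of them. All 8 passed the minimum of 100 unique molecular identifiers (UMIs, 1 per captured transcript) in every comparison. The other 5 annexin genes in the tables were scarce and are described last.

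The cells were H9, an established human embryonic stem cell line, held in the naive state in RSeT medium. Both groups were transfected with 25 nM of a fluorescein-labelled oligonucleotide, which was antisense to LINE1 RNA in ASO-L1 and its sense counterpart, the control, in SO-L1. From transfection both also received 10 nM DZNep, an inhibitor of methyltransferase reactions, and 5 nM TSA, a histone deacetylase inhibitor, while 0.7 µM Trans-ISRIB, 5 µM emricasan and 10 µM Y-27632 were withdrawn after 24 hours. After 48 hours, 100000 fluorescent cells were sorted per group and made into 1 library each, so every group shares the drugs and the sort for uptake. Cells that took up no oligonucleotide were not analysed here.

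Annexins share a core of repeats that binds acidic phospholipids, such as phosphatidylserine, when calcium rises, and they differ in their N-terminal tails, which bind other proteins. They are known for membrane repair, vesicle traffic, the link between membranes and actin, and, for ANXA1, the control of inflammation. ANXA2 pairs with S100A10 and ANXA1 with S100A11, while ANXA5 is the protein commonly used to stain phosphatidylserine on dying cells.

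With 1 library per group there is no replicate check, "higher" and "lower" compare these libraries or cells, and intervals (95%) cover counting error only. A level is in CPM, the UMIs of a gene per 1000000 non-mitochondrial UMIs of the cells named. A gene is called higher or lower at a ratio of 1.5-fold or more whose interval leaves out 1. Counts from the 3′ ends of transcripts were not divided by length, so levels are compared across cells and not between genes. Cells were kept from 1000 detected genes and below 20% mitochondrial UMIs, which left 6553 of 13070 barcodes in SO-L1 and 9084 of 11659 in ASO-L1. They were split at 2% mitochondrial UMIs. Cells below 2% numbered 1857 in SO-L1 and 2531 in ASO-L1, and cells at 2% or more numbered 4696 and 6553. Between 1% and 3%, near the boundary, lay 178 and 363 cells.

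The libraries shared 6105 barcode sequences, which belong to 16.2% of kept SO-L1 cells and 58.4% of kept ASO-L1 cells. Of these sequences, 5032 were kept cells in ASO-L1 and had under 1000 genes in SO-L1, and 274 were kept in both. In ASO-L1 below 2%, cells with a shared barcode held a median of 58949.5 non-mitochondrial UMIs and the others 16475. Leaving shared barcodes out therefore also left out deeper cells, and results whose call changes or that move by over 1.5 times when this is done are given with and without them. The 6 listed embryonic stem cell markers had UMIs in each of the 4 classes, with a summed level of 1958 CPM in SO-L1 below 2%, 2610 in SO-L1 at 2% or more, 1158 in ASO-L1 below 2% and 2427 in ASO-L1 at 2% or more.

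The stretches upstream of the RefSeq starts (GRCh38.p14) of ANXA1, ANXA2 and ANXA6 are shown because ANXA1 and ANXA2 were high in the same cells and ANXA6 was low there. Each begins 250 bases before a RefSeq start and stops before the first base of any exon in GENCODE 29. Capitals mark matches on either strand, and overlapping matches are merged. The AP-1 motif was searched as TGANTCA. The TEAD motif was searched as GGAATG. For SP1 the letters were GGGCGG. For TATA the letters were TATAAA. The ANXA1 stretch is chr9:73151615-73151756 (plus strand, 142 bases), the ANXA2 stretch chr15:60398044-60398236 (minus strand, 193 bases) and the ANXA6 stretch chr5:151157883-151158029 (minus strand, 147 bases).
ANXA1: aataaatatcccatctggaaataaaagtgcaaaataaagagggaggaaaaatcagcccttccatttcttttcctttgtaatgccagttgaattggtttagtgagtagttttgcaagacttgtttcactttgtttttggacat
ANXA2: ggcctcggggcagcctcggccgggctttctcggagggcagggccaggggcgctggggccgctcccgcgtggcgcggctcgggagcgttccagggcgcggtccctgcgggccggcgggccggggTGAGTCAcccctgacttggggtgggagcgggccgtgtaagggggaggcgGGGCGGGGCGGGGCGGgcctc
ANXA6: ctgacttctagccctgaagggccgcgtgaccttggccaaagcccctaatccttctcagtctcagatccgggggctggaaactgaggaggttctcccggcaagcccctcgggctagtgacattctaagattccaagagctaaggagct
The ANXA2 stretch held 1 AP-1 match and 3 SP1 matches, and its GC content was 81.3%. Among 35116 promoters in the table cut to the same 193 bases, 5.08% held an AP-1 match and 33.6% an SP1 match. The ANXA1 stretch, with 33.8% GC, and the ANXA6 stretch, with 57.1%, held none of the 4 motifs. The bases next to the RefSeq start were not searched, 108 for ANXA1, 57 for ANXA2 and 103 for ANXA6. A motif there, such as TATA, would be missed. A stretch before another RefSeq start of ANXA6 (chr5:151141685-151141934, 250 bases) also held none of the 4. For ANXA1, the shares of promoters of its length with a match were 3.58% for AP-1, 7.08% for TEAD, 24.3% for SP1 and 6.05% for TATA. A match is only a run of letters, and its absence says nothing of the factor. No stretch of ANXA3 is shown, as its whole window lies in an exon of GENCODE 29.

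ANXA1, a phospholipid-binding protein known as a mediator of glucocorticoid action, spans chr9:73151757-73170393 on the plus strand and varied most of the 8. Its level was 2.67 CPM (2.44 to 2.91) in SO-L1 cells at 2% or more and 97.7 CPM (95.2 to 100.2) in SO-L1 cells below 2%. In ASO-L1 it was 32.3 CPM (31.7 to 32.9) at 2% or more and 440 CPM (436 to 443) below 2%. Both the low mitochondrial share and the antisense library thus went with a higher ANXA1 level. Below 2%, the ratio of ASO-L1 over SO-L1 was 4.50 (4.38 to 4.62), and at 2% or more it was 12.1 (11.1 to 13.3). Without shared barcodes the ratios were 4.43 and 8.16, and over all kept cells the ratio fell from 5.30 to 2.95. Cells below 2% over the others gave 36.6 (33.5 to 40.1) in SO-L1 and 13.6 (13.3 to 13.9) in ASO-L1. The size of these ratios depended on how cells were weighted: as a mean over cells weighted equally, the SO-L1 ratio was 14.3 and the ratio of libraries at 2% or more was 4.32. Without shared barcodes, cells below 2% over the others gave 55.9 in SO-L1 and 30.4 in ASO-L1.

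ANXA2, which links membranes to actin and binds plasminogen activators with S100A10, spans chr15:60347134-60402883 on the minus strand. It stood at 218 CPM in SO-L1 cells at 2% or more and 493 CPM in those below 2%. In ASO-L1 the levels were 265 CPM and 901 CPM. Cells below 2% held more of it in both libraries, with ratios of 2.26 (2.23 to 2.30) in SO-L1 and 3.41 (3.38 to 3.44) in ASO-L1. The ratio of ASO-L1 over SO-L1 was 1.83 below 2% and 1.22 at 2% or more, where it does not reach 1.5-fold. Without shared barcodes the first ratio was 1.41, under 1.5-fold, and that of the ASO-L1 classes 2.70. The level below 2% also differed with depth in ASO-L1. It was 628 CPM in cells of 10000 to 30000 non-mitochondrial UMIs and 1021 CPM in cells of 60000 or more. In SO-L1 the same bins held 513 and 498 CPM. GENCODE 29 lists 3 processed copies of ANXA2 as pseudogenes, 0 of which are in the count tables.

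ANXA3, an annexin of epithelia and blood cells, spans chr4:78551519-78610451 on the plus strand. Its level was 3.57 CPM in SO-L1 cells at 2% or more, 20.1 CPM in SO-L1 cells below 2%, 20.3 CPM in ASO-L1 cells at 2% or more and 59.7 CPM in ASO-L1 cells below 2%. The intervals of the middle pair overlap (19.0 to 21.3 and 19.9 to 20.8). The ratio of ASO-L1 over SO-L1 was 2.96 below 2% and 5.69 at 2% or more, and 1.89 and 6.49 without shared barcodes.

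ANXA4, found on membranes of secretory epithelia, spans chr2:69644425-69827100 on the plus strand and overlaps AAK1 on the other strand. It followed the mitochondrial class more than the library. It stood at 19.3 CPM and 44.4 CPM in SO-L1, at 2% or more and below 2%, and at 24.2 CPM and 46.3 CPM in ASO-L1. The ratio of cells below 2% over the others was 2.31 in SO-L1 and 1.92 in ASO-L1, while ASO-L1 over SO-L1 was 1.04 (0.995 to 1.09) below 2%, or 0.776 without shared barcodes, and 1.25 at 2% or more. ANXA5, which binds exposed phosphatidylserine, spans chr4:121667955-121697113 on the minus strand and followed the library more than the class. Its level was 104 CPM and 134 CPM in SO-L1, and 180 CPM and 300 CPM in ASO-L1, in the same order. The ratio of ASO-L1 over SO-L1 was 2.23 below 2%, or 1.76 without shared barcodes, and 1.72 at 2% or more, and that of cells below 2% over the others was 1.29 in SO-L1 and 1.67 in ASO-L1. Below 2%, ANXA5 in ASO-L1 was 215 CPM in cells of 10000 to 30000 non-mitochondrial UMIs and 331 CPM from 60000 upward. In SO-L1 the same bins held 121 and 133 CPM.

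ANXA6, the annexin with a doubled core, known for work in endosomes and cholesterol transport, spans chr5:151100712-151157882 on the minus strand and was the only one of the 8 called lower between libraries or mitochondrial classes. It was highest where ANXA1 was lowest. SO-L1 cells at 2% or more held 72.8 CPM (71.6 to 74.0) and SO-L1 cells below 2% held 56.1 CPM (54.2 to 58.0). ASO-L1 cells at 2% or more held 32.4 CPM (31.9 to 33.0) and ASO-L1 cells below 2% held 14.1 CPM (13.4 to 14.8). The intervals of the 4 classes do not overlap. ASO-L1 over SO-L1 gave 0.251 (0.236 to 0.266) below 2% and 0.446 (0.435 to 0.457) at 2% or more, and 0.164 and 0.347 without shared barcodes. Cells below 2% over the others gave 0.771 in SO-L1 and 0.433 in ASO-L1.

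ANXA7 (chr10:73375101-73414076, minus strand), known for membrane fusion in secretion, and ANXA11 (chr10:80150889-80205572, minus strand), which tethers RNA granules to lysosomes, varied least. ANXA7 ranged over the 4 classes from 81.9 CPM in SO-L1 cells at 2% or more to 116 CPM in ASO-L1 cells below 2%. ANXA11 ranged from 41.8 CPM in ASO-L1 cells at 2% or more to 61.9 CPM in ASO-L1 cells below 2%. None of their ratios between libraries or classes reached 1.5-fold, though ANXA11 was just under it at 1.48 in ASO-L1 cells below 2% over the others. Without shared barcodes, ANXA7 went from 1.06 to 0.826 in ASO-L1 over SO-L1 below 2% and from 1.23 to 0.972 between the ASO-L1 classes. The ANXA11 ratio of 1.48 was 0.854 without shared barcodes, and its ratio of ASO-L1 over SO-L1 below 2% went from 1.07 to 0.603. Its level in ASO-L1 cells below 2% differed with depth, at 41.2 CPM in cells under 10000 non-mitochondrial UMIs. It was 26.3 CPM in cells of 10000 to 30000 and 72.3 CPM in cells of 60000 or more.

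**Figure D1:**
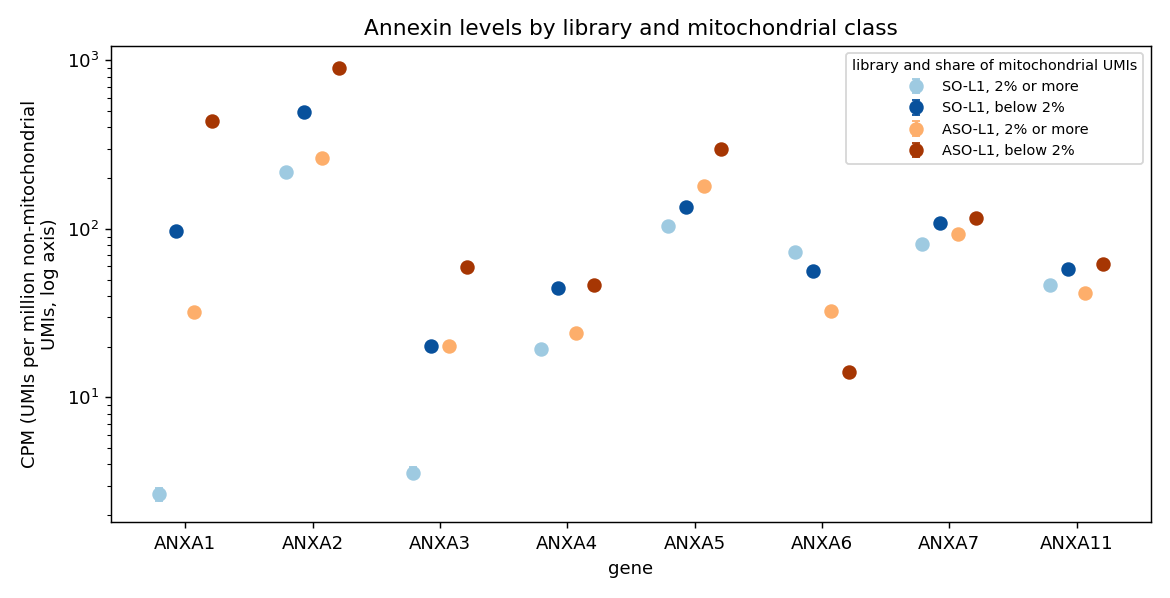
Level of each annexin (CPM, log axis) in the 4 classes of cells made by library and by mitochondrial UMIs below 2% or at 2% or more; bars, often smaller than the points, are 95% counting intervals. ANXA1 runs from 2.67 to 440 CPM, and ANXA6 from 72.8 CPM where ANXA1 is lowest to 14.1 CPM where ANXA1 is highest. Both genes are higher in SO-L1 cells below 2% than in ASO-L1 cells at 2% or more. ANXA7 and ANXA11 stay within narrow ranges.

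Counted together, 4 of the 8 annexins were higher in ASO-L1 than in SO-L1 below 2% (ANXA1, ANXA2, ANXA3 and ANXA5), against 22.9% of all genes tested, and 1 was lower (ANXA6), against 24.9%. At 2% or more, 3 were higher (ANXA1, ANXA3 and ANXA5), against 12.2%, and 1 was lower (ANXA6), against 15.7%. Over all kept cells the counts were 3 higher against 16.0% and 1 lower against 18.0%, with ANXA2 just outside the threshold at 1.49. For cells below 2% over the others, 4 were higher in SO-L1 (ANXA1 to ANXA4), against 19.9%, and 0 lower, against 6.32%. In ASO-L1 5 were higher (ANXA1 to ANXA5), against 27.1%, and 1 was lower (ANXA6), against 12.8%. The members were chosen with these contrasts known, so nothing is read from the shares. The median log2 ratio over all genes was 0.14 in the ASO-L1 comparison of classes, and in it the members' ratios, divided by that median ratio, kept their calls, with ANXA1 at 12.4, ANXA5 at 1.51, ANXA6 at 0.394 and ANXA11 at 1.34. Without shared barcodes ANXA5 was not called there, at 1.29.

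Other lists moved with the same classes of cells. The 4 listed genes of stressed epithelium (KRT16, KRT17, KRT75 and SFN) summed to 10.2 CPM in SO-L1 at 2% or more, 155 CPM in SO-L1 below 2%, 39.3 CPM in ASO-L1 at 2% or more and 496 CPM in ASO-L1 below 2%, an order shared with ANXA1. The nuclear RNAs MALAT1 and NEAT1 summed to 2445 and 7091 CPM in SO-L1 and to 3650 and 7344 CPM in ASO-L1, at 2% or more and below 2%. The 6 fibroblast markers summed to between 23.7 and 69.1 CPM over the 4 classes, the 5 macrophage markers to between 1.22 and 18.2 CPM and the 4 endothelial markers to between 6.30 and 12.9 CPM. LUM and DCN were at 0 in SO-L1 cells below 2%. The 7 trophectoderm markers summed to between 3.43 and 14.5 CPM, with VGLL1 at 0 in SO-L1 below 2%, the 5 amnion markers to between 2.67 and 7.23 CPM and the 5 mesendoderm markers to between 15.6 and 145 CPM. The 6 markers of 8-cell-like cells summed to between 2.20 and 356 CPM, with LEUTX at 0 in SO-L1 below 2%, and the 5 naive markers to between 258 and 364 CPM. The part of these cells, of RNA quality and of depth in the annexin differences was not tested.

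Along the mitochondrial share, ANXA1 fell over several bins and not in 1 step at 2%. In ASO-L1, ANXA1 stood between 400 and 543 CPM in the 5 bins below 2%, at 220 CPM from 2% to 4%, at 61.5 CPM from 4% to 6% and at 7.67 CPM from 8% to 10%. It was then 82.1 CPM in the 114 cells from 15% to 20%. The SO-L1 cells gave 84.5 to 122 CPM below 2%, 31.8 CPM from 2% to 4%, 14.9 CPM from 4% to 6% and 0.974 CPM from 8% to 10%. The bins from 2% to 6% thus lay between those below 2% and that from 8% to 10% in both libraries. The SO-L1 cells from 2% to 4% were shallow, with a median of 3326.5 non-mitochondrial UMIs. ANXA6 in ASO-L1 went from 15.3 CPM in the lowest bin to 44.9 CPM from 10% to 15%. In SO-L1 it stayed between 47.6 and 73.9 CPM over the same 11 bins.

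**Figure D2:**
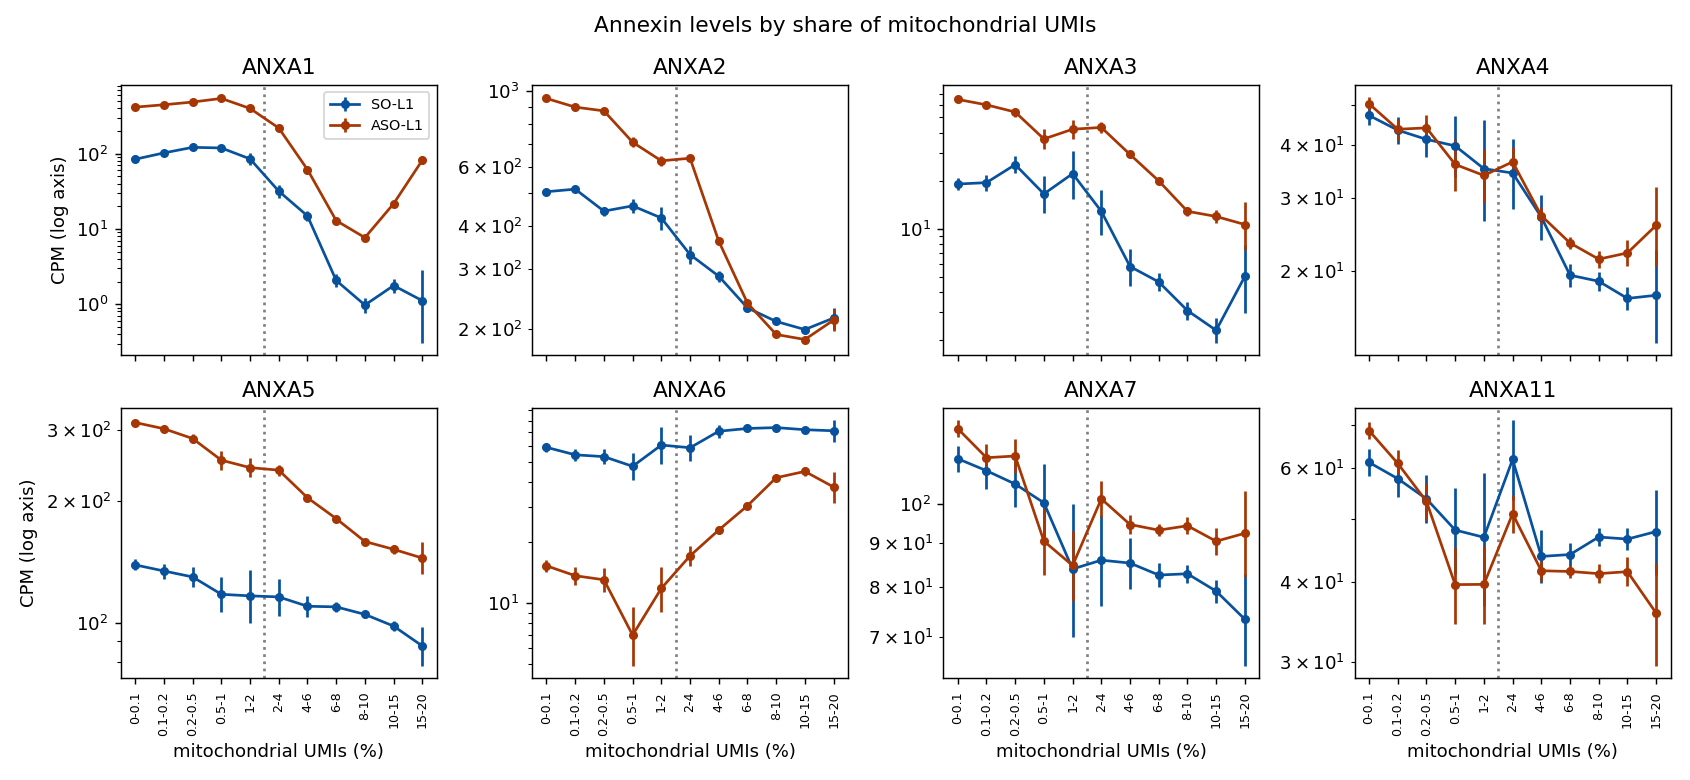
Level of each annexin (CPM, log axis) in 11 bins of mitochondrial UMIs (%) in SO-L1 and ASO-L1; bars are 95% counting intervals and the dotted line marks 2%. ANXA1 falls across the line and goes on falling over several bins above it in both libraries. ANXA2 and ANXA3 are level across the line in ASO-L1 and lower from 4% to 15%. ANXA6 slopes up in ASO-L1 from 15.3 to 44.9 CPM between the lowest bin and 10% to 15%.

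Among cells below 2%, those with at least 1 UMI of IL24, PLA2G2A or TPRX1 were set against those with no UMI of the 3. IL24 encodes a cytokine, PLA2G2A a secreted phospholipase A2 and TPRX1 a homeobox factor of the embryo at genome activation. SO-L1 had 56 IL24, 1024 PLA2G2A and 78 TPRX1 cells against 755 with none, and ASO-L1 had 684, 713 and 436 against 1033. Groups overlap, with 55 SO-L1 and 300 ASO-L1 cells below 2% carrying 2 or more of the markers. A UMI of a marker is found more easily in a deep cell, and cells with no marker were shallower, with medians of 18607 and 30095 non-mitochondrial UMIs, while IL24 cells had 25245.5 and 50441.5.

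ANXA1 was highest in IL24 cells, at 723 CPM (681 to 768) in SO-L1 and 747 CPM (738 to 756) in ASO-L1. The cells with no marker held 129 CPM and 365 CPM, so the 2 libraries were close in IL24 cells and apart in the rest. The ratios were 5.62 (5.22 to 6.05) in SO-L1 and 2.05 (2.00 to 2.09) in ASO-L1. ANXA2 was also higher there, by 2.00 in SO-L1 and 1.54 in ASO-L1, though under the alternatives the ASO-L1 ratio went as low as 1.46, below 1.5-fold. ANXA3 was 2.99-fold higher in SO-L1, its ASO-L1 ratio being 0.952 (0.897 to 1.01), and the difference between the libraries was not tested. ANXA6 was lower in IL24 cells of both libraries, at 24.4 CPM against 54.5 CPM in SO-L1 and 4.18 CPM against 15.7 CPM in ASO-L1. The SO-L1 value rests on 36 UMIs. Its ratio of 0.448 was 0.683 after thinning and then not called, while the ASO-L1 ratio was 0.267 (0.221 to 0.320), or 0.410 with classes split at 5%.

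In SO-L1 IL24 cells 3 annexins were higher, against 12.0% of genes tested, and 1 lower, against 9.49%. In ASO-L1 IL24 cells 2 were higher, against 7.67%, and 1 lower, against 28.0%. The 4 stressed-epithelium genes summed to 1061 CPM in SO-L1 IL24 cells and 1001 CPM in ASO-L1 IL24 cells. With no marker they summed to 273 and 333 CPM. The 6 stem cell markers summed to 995 and 604 CPM, against 1784 and 1213 CPM. The 6 markers of 8-cell-like cells summed to 528 and 434 CPM, against 54.3 and 99.3 CPM. TPRX1 is among them, at 51.5 and 40.8 CPM in IL24 cells, and cells with no marker lack it by definition. The macrophage markers summed to 25.8 and 32.2 CPM, against 6.11 and 15.1 CPM, with PTPRC and LYZ at 0 in SO-L1. The part of the cells these lists mark in the annexin levels was not tested.

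PLA2G2A cells went the other way for ANXA1 in SO-L1, with 60.5 CPM and a ratio of 0.470 (0.444 to 0.499). ANXA3 was lower there too, at 14.2 CPM and 0.549 (0.484 to 0.623). These were the 2 lower annexins in SO-L1, against 5.86% of genes, with 0 higher against 0.549%. In ASO-L1 0 were higher, against 2.59%, and 0 lower, against 5.55%. The ASO-L1 PLA2G2A cells held 316 CPM of ANXA1, a ratio of 0.866, and 23.2 CPM of ANXA6, a ratio of 1.48 (1.33 to 1.65) just under the threshold. With PLA2G2A cells that also had IL24 or TPRX1 left out, the ASO-L1 ratio of ANXA1 was 0.541 and it was called lower.

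In TPRX1 cells ANXA2 was higher, at 984 CPM (ratio 1.81) in SO-L1 and 1331 CPM (ratio 1.74) in ASO-L1, the highest ANXA2 level of the groups in ASO-L1. This was not particular to TPRX1 cells, as IL24 cells held 1091 CPM in SO-L1 and 1176 CPM in ASO-L1. Of the ASO-L1 TPRX1 cells, 34.4% also had an IL24 UMI. From 2 UMIs of TPRX1 upward, the SO-L1 ratio of ANXA2 was 3.33, and without shared barcodes its ASO-L1 ratio was 2.29. ANXA3 was higher in SO-L1, at 45.7 CPM and 1.77, and stood at 80.6 CPM and 1.28 in ASO-L1. ANXA6 was 54.6 CPM in SO-L1 TPRX1 cells and 54.5 CPM in the cells with no marker, and 5.34 CPM against 15.7 CPM in ASO-L1, a ratio of 0.341 (0.280 to 0.413) that was 0.184 from 2 UMIs of TPRX1 upward. The difference between the libraries was not tested. Without shared barcodes ANXA1, at a ratio of 1.43 in SO-L1 TPRX1 cells, reached 1.73 and was called higher, and with each cell weighted equally it was 2.54. In SO-L1 2 annexins were higher, against 4.83% of genes, and 0 lower, against 5.98%. In ASO-L1 1 was higher, against 7.06%, and 1 lower, against 28.8%.

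The median log2 ratio over all genes was -0.19 for ASO-L1 IL24 cells, -0.25 for ASO-L1 TPRX1 cells and -0.10 for SO-L1 PLA2G2A cells. Relative to it, ANXA6 was at 0.304 and 0.404 in the first pair, and ANXA3 reached 1.51 in ASO-L1 TPRX1 cells. ANXA5 reached 1.66 in ASO-L1 IL24 cells. Uncalled ratios close to 1 crossed it with this scaling, such as ANXA3 in ASO-L1 IL24 cells, from 0.952 to 1.09. Unscaled, ANXA4, ANXA5, ANXA7 and ANXA11 were called in none of the 6 marker comparisons. Their ratios lay between 0.760, for ANXA4 in ASO-L1 PLA2G2A cells, and 1.46, for ANXA5 in ASO-L1 IL24 cells. Without shared barcodes ANXA4 was called lower in ASO-L1 IL24 cells, at 0.592, and in ASO-L1 TPRX1 cells, at 0.635.

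**Figure D3:**
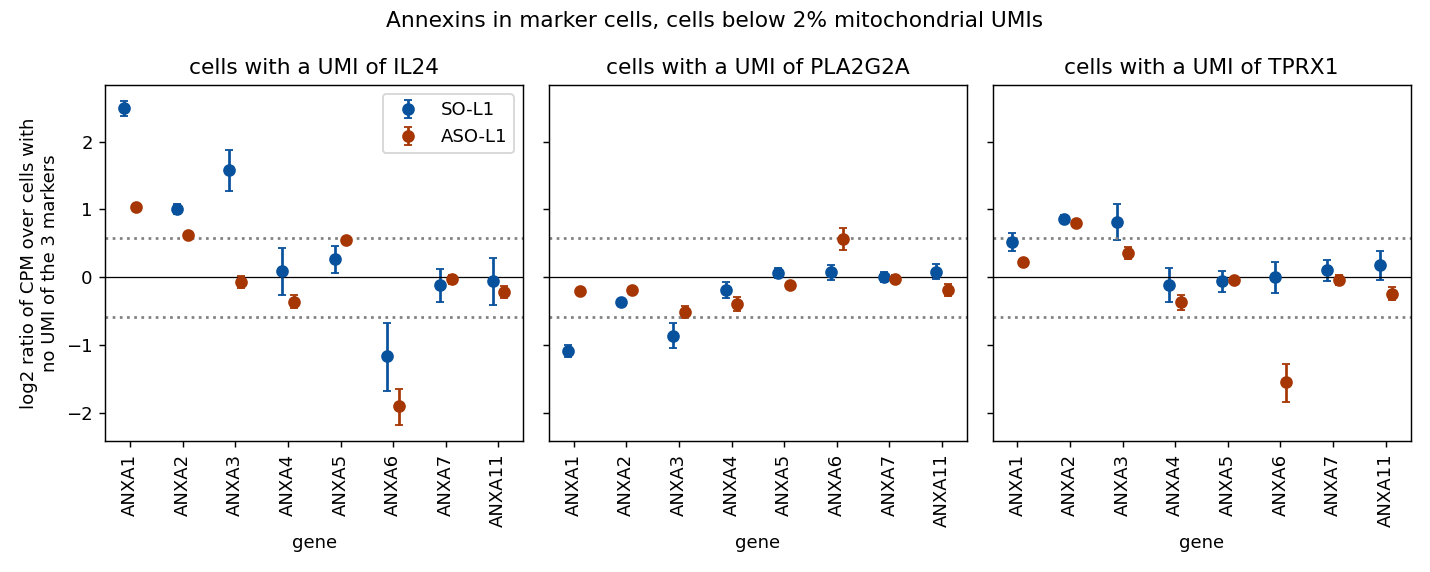
Log2 ratio of CPM in cells with a UMI of IL24, PLA2G2A or TPRX1 over cells with no UMI of the 3, cells below 2% mitochondrial UMIs, in SO-L1 and ASO-L1; bars are 95% counting intervals and dotted lines mark 1.5-fold. ANXA1 stands out upward in IL24 cells (5.62 and 2.05-fold) and ANXA6 downward in IL24 cells of both libraries and in TPRX1 cells of ASO-L1 (0.341).

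To compare single cells, each was thinned to 8000 non-mitochondrial UMIs, which left out 303 and 296 cells below 2% and 351 and 233 at 2% or more, the control library first. ANXA1 then had a UMI in 17.4% (15.5 to 19.4) of SO-L1 cells below 2% and in 52.0% (49.9 to 54.1) of those in ASO-L1. At 2% or more the shares were 0.759% (0.523 to 1.06) and 7.06% (6.44 to 7.72). No cell type that lacks ANXA1 was at hand in either library to give the share that free RNA produces. Before thinning the shares were 21.8% and 60.9% below 2%, and 3.32% and 20.01% at 2% or more, SO-L1 before ASO-L1. ANXA6 had a UMI in 34.7% and 8.86% of cells below 2% and in 43.1% and 21.2% of cells at 2% or more, SO-L1 before ASO-L1. In ASO-L1 IL24 cells below 2%, ANXA1 had a UMI in 79.0% of cells and ANXA6 in 2.42%.

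The mean number of the 8 annexins with a UMI was 3.28 in SO-L1 and 3.77 in ASO-L1 below 2%, and 2.71 and 2.85 at 2% or more. At least 5 of the 8 were seen in 16.5% and 29.5% of cells below 2%, and in 5.82% and 7.96% of cells at 2% or more. ANXA1 was unevenly spread over cells, with a variance of 9.07 times the mean in SO-L1 and 10.5 times in ASO-L1 below 2%, where counting alone gives 1. In SO-L1 below 2%, its highest cell had 29 UMIs, and in ASO-L1 63. ANXA2 had 4.13 and 4.24 times the mean, while ANXA7 had 1.05 and 1.14 and ANXA11 1.11 and 1.19. This ratio grows with a gene's mean, so it does not rank the members by spread.

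**Figure D4:**
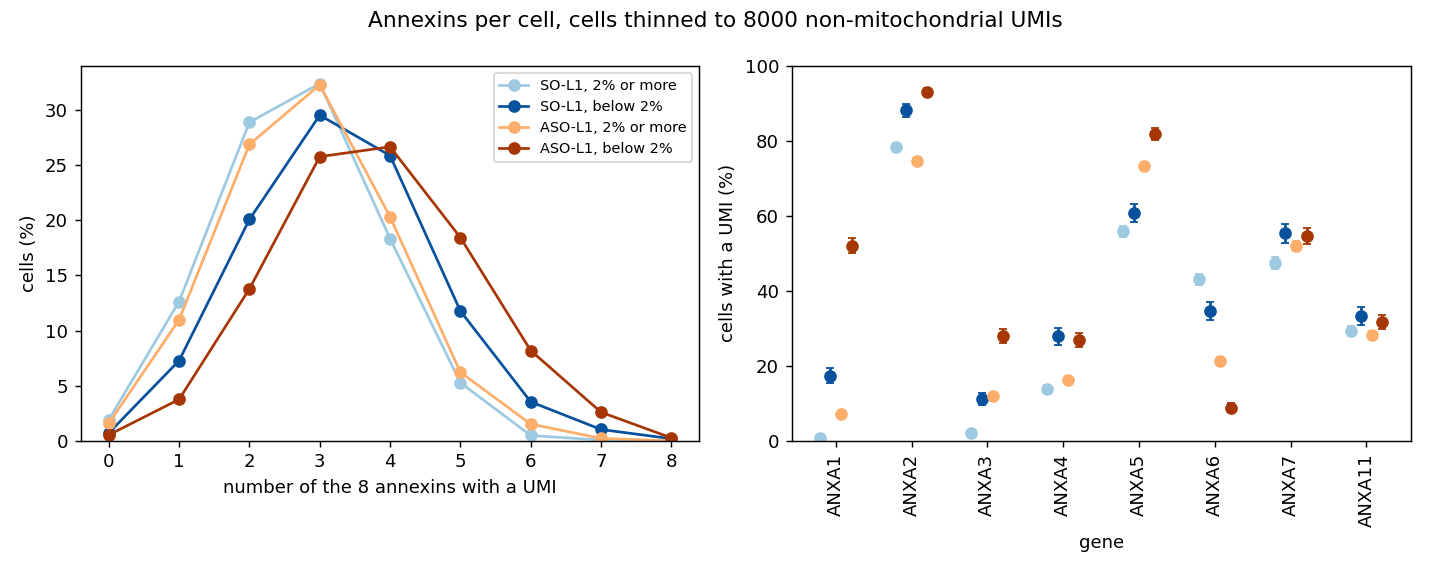
Cells (%) by number of the 8 annexins with a UMI (left), and cells (%) with a UMI of each annexin (right, bars are exact 95% binomial intervals), after thinning to 8000 non-mitochondrial UMIs, by library and mitochondrial class. ASO-L1 cells below 2% sit furthest to the right with a mean of 3.77 annexins, and ANXA1 shares span 0.759% to 52.0%.

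Cell by cell, the Pearson correlation of ANXA1 with ANXA2 was 0.39 over 1554 SO-L1 cells and 0.42 over 2235 ASO-L1 cells below 2%. Cells of a library share its preparation, and these values describe sparse counts. Of the 28 pairs, 24 in SO-L1 and 14 in ASO-L1 lay within 0.1 of 0 below 2%. The lowest values were -0.08 for ANXA1 with ANXA6 in SO-L1 and -0.14 for ANXA2 with ANXA6 in ASO-L1.

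A split by ANXA1 UMIs, chosen after its spread was seen, shows the same pairs as levels. In ASO-L1 cells below 2%, ANXA6 was 19.8 CPM (17.0 to 23.0) in the 1072 cells with no ANXA1 UMI, 7.35 CPM with 1 to 2, 5.50 CPM with 3 to 9 and 5.74 CPM (3.06 to 9.82) in the 283 cells with 10 or more. ANXA2 was 567, 921, 1068 and 1263 CPM in the same cells. In SO-L1, ANXA6 was 59.5, 48.0, 38.2 and 27.0 CPM, with the last value resting on 37 cells and 8 UMIs, and ANXA2 was 391, 816, 1059 and 1267 CPM. From 3 ANXA1 UMIs upward, the ANXA2 intervals of the libraries overlap, while ANXA6 was lower in ASO-L1 in each class with intervals that do not overlap. ANXA5 was higher in ASO-L1 in each class, at 230 to 360 CPM against 102 to 145 CPM. ANXA7 went from 105 to 113 CPM over the ASO-L1 classes.

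**Figure D5:**
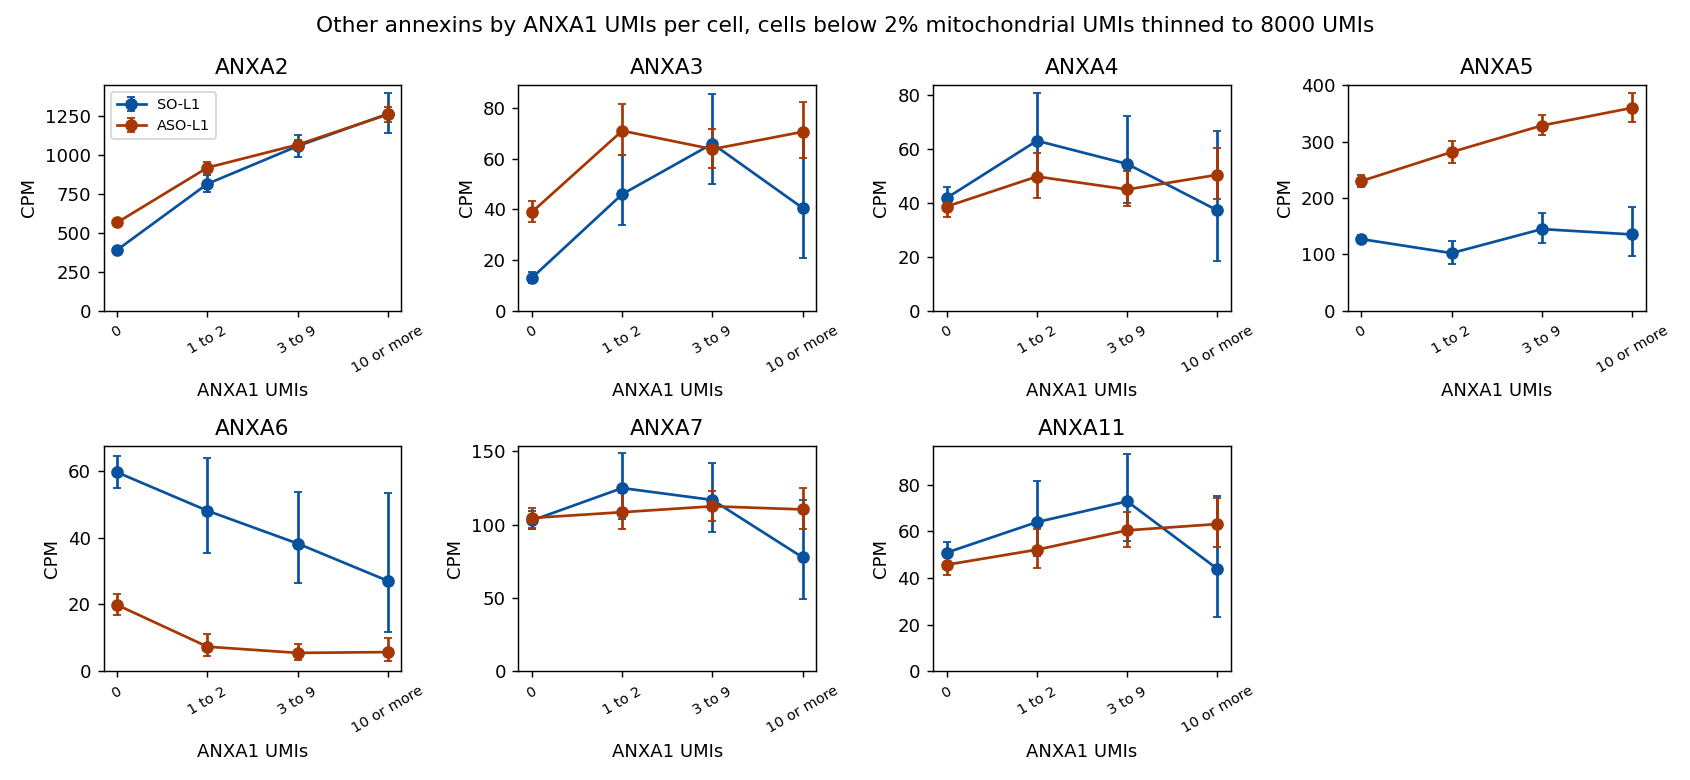
Levels (CPM) of the other 7 annexins in cells below 2% mitochondrial UMIs, thinned to 8000 UMIs and split by ANXA1 UMIs per cell, in both libraries; bars are 95% counting intervals. ANXA2 climbs with ANXA1 in both libraries, from 391 to 1267 CPM in SO-L1 and from 567 to 1263 CPM in ASO-L1, and ANXA6 is lower in ASO-L1 in each class.

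Over 10 separate groups of cells, made by library, class and marker, the genes whose log2 level was most like that of a member among 15168 genes were listed by Pearson correlation. The groups share 2 libraries, and the values describe them only. For ANXA1 these were TAC1, ADGRE5 and BTG3, each at 0.99. For ANXA2 they were S100A13 (0.99), RRAD (0.98) and TMC7 (0.98), and for ANXA3 PRNP, PRKAB2 (both 0.98) and F3 (0.97). ANXA4 had TNFRSF10D, NHLH2 and MARCH2, all at 0.96. ANXA5 had ACTG1 (0.99), SERINC3 (0.99) and IP6K2 (0.98). ANXA6 was most like UBAC2, STK25 and WARS2-AS1, each at 0.99. ANXA7 had RAB3IL1 (0.98), ABHD6 and PRPSAP1 (both 0.96), and ANXA11 had GGT5, MYOZ1 (both 0.94) and FAM122C (0.92). Among the members themselves, ANXA1 and ANXA2 gave 0.89, ANXA1 and ANXA4 0.92, and ANXA5 and ANXA6 -0.89. These are values between groups. Cell by cell below 2%, ANXA1 with ANXA2 gave 0.39 in SO-L1 and 0.42 in ASO-L1, and ANXA1 with ANXA4 0.05 in both. ANXA5 with ANXA6 gave 0.10 in SO-L1 and -0.07 in ASO-L1.

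Of 7 listed proteins that bind annexins, 5 were higher in cells below 2% in each library, where 19.9% of all genes tested were higher in SO-L1 and 27.1% in ASO-L1, and 1, PDCD6, which binds ANXA7 and ANXA11, was lower in ASO-L1, at 0.657. The list's median log2 ratio was 0.89 in SO-L1, where that of all genes was 0.09, and 1.22 in ASO-L1, where it was 0.14. S100A10, the partner of ANXA2, was at 508 CPM below 2% and 303 CPM at 2% or more in SO-L1, and at 926 and 397 CPM in ASO-L1. S100A11, the partner of ANXA1, was 1.85-fold and 1.84-fold higher below 2%. S100A6, which binds several annexins, was 21.4-fold and 9.93-fold higher, S100A4 4.97-fold and 5.25-fold, and AHNAK, a scaffold bound by ANXA2 with S100A10, 4.41-fold and 4.29-fold.

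In the plasminogen system, on whose activation ANXA2 acts at the cell surface, 3 of 5 measured genes were higher below 2% in SO-L1 and 4 in ASO-L1, with 0 lower, against 19.9% and 27.1% of all genes higher. The list's median log2 ratio was 1.54 and 2.40. PLAU, the urokinase itself, was 9.19-fold and 5.27-fold higher. PLAUR, the urokinase receptor, was 5.78-fold higher in ASO-L1 and had a ratio of 1.06 in SO-L1. The receptor PLGRKT had ratios of 1.01 and 0.809. Both lists and the ones that follow were chosen with earlier results of these data known.

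Of 11 membrane repair genes, 5 were higher and 1 lower below 2% in SO-L1, and 6 and 1 in ASO-L1. Of all genes tested, 19.9% were higher and 6.32% lower in SO-L1, and 27.1% and 12.8% in ASO-L1. The list's median log2 ratio was 0.43 and 0.65, that of all genes being 0.09 and 0.14. The lower gene was CAV1 in SO-L1 (0.648), which was 1.57-fold higher in ASO-L1, and DYSF in ASO-L1 (0.662). MYOF, a ferlin of membrane fusion, was 2.69-fold and 4.37-fold higher, and CAVIN1, of caveolae, 1.72-fold and 3.76-fold. The calpain subunits CAPN1 (1.05 and 0.812) and CAPNS1 (1.35 and 1.40) stayed under 1.5-fold, while a further calpain, CAPN2, was 2.31-fold and 3.66-fold higher. Of 14 genes of the ESCRT machinery, which seals membranes, 1 was higher and 0 lower in SO-L1, and 2 and 1 in ASO-L1, with medians of 0.07 and 0.21. CHMP4C was 1.97-fold and 1.70-fold higher, and CHMP6 had a ratio of 0.797 in SO-L1 and was lower in ASO-L1 at 0.519. CHMP5 (1.12 and 1.14) and CHMP2A (1.01 and 0.717) were not called.

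Among 15 flippases and scramblases, which set where phosphatidylserine lies in the membrane, 3 were higher in SO-L1, a share near the 19.9% of all genes. In SO-L1 0 were lower, against 6.32% of all genes, and in ASO-L1 the counts were 6 and 2, against 27.1% and 12.8%. The list's median log2 ratio was 0.40 and 0.36. ATP10D was 2.94-fold and 2.41-fold higher. Of the scramblases, ANO6 (76.3 against 76.0 CPM in SO-L1, and a ratio of 0.889 in ASO-L1), PLSCR1 (1.09 and 0.685) and PLSCR3 (0.815 and 0.745) were not called. PLSCR4 was 1.57-fold and 1.54-fold higher, and XKR8 was 1.59-fold higher in ASO-L1 with a ratio of 1.13 in SO-L1. Of the phospholipases A2, whose activity ANXA1 is known to restrain, 4 of 9 measured were higher and 1 lower in SO-L1, against 19.9% and 6.32%. In ASO-L1 they were 4 of 10 and 1, against 27.1% and 12.8%, and the medians were 0.47 and 0.49. PLA2G4C was 4.55-fold higher in ASO-L1 with a ratio of 1.38 in SO-L1, PLA2G10 was 2.33-fold and 2.08-fold higher, PLAAT3 1.60-fold and 0.961, and PLA2G12A had 1.17 and 0.806. Of 8 measured copines, relatives in calcium-dependent lipid binding, 1 was higher and 2 lower in SO-L1, against 19.9% and 6.32% of all genes. In ASO-L1 0 were called either way, against 27.1% and 12.8%, and the medians were 0.20 and 0.10. CPNE1 (1.04 and 1.24), CPNE2 (1.49 and 1.42) and CPNE3 (1.21 and 1.08) were not called. CPNE9 was the copine higher in SO-L1, and CPNE5 and CPNE7 were the lower ones.

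The formyl peptide receptors, through which ANXA1 acts on leukocytes, were scarce. FPR1 reached 0.884 CPM in ASO-L1 cells below 2% and 0.190 CPM in SO-L1 cells at 2% or more, and FPR2 had 6 UMIs in SO-L1 cells below 2% and 2 in the others. The 5 further annexin genes were scarce as well. ANXA9 had 1.19 CPM in SO-L1 below 2%, 0.550 CPM in SO-L1 at 2% or more, and 0.648 and 0.511 CPM in ASO-L1. ANXA8 had 0.288, 0.185, 0.385 and 0.0281 CPM in the same order, and it is uncertain because it has a near-identical copy, ANXA8L1, counted separately. ANXA8L1, ANXA10 and ANXA13 stayed below the 50 UMIs asked of a measured gene in each class comparison.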

How the data were processed

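Single-cell 3′ RNA sequencing (10x Genomics, v3 chemistry) was read from 2 libraries, 1 per group, so p-values, replicate errors and pairing were not available. Raw UMI counts, 1 matrix per library, were deposited by the authors. The build hg38 is named in the submitters' processing notes, and Cell Ranger 7.1.0 made the counts, per the file headers. Which annotation release, cell calling, strand and intron settings applied was not given in the sources used here. Kept control cells had a median of 42314 UMIs and kept ASO-L1 cells 53959.5.

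UMIs were summed over the cells of a group and divided by the non-mitochondrial total. Ratios carry exact conditional binomial (Clopper-Pearson) and levels exact Poisson 95% intervals, and a sum of 0 was replaced by a floor of 3 UMIs for a fold. These cover counting error only, since UMIs of 1 cell are not independent. Shares of genes called are over genes with at least 100 UMIs, and listed genes were measured from 50. The ratio script recovered known folds when tested on simulated data. The simulated counts were group sums with counting error alone and no spread between cells. They therefore do not check the interval widths for these cells. No doublet caller was run, and leaving out the 2% of cells with most UMIs was tried in its place. Gene positions are from GENCODE 29. Python 3.11.15, numpy 2.4.6, scipy 1.17.1 and pandas 2.3.3 were used. The likeness list used genes with at least 500 UMIs and groups of at least 20 cells, a cell with several markers being left out.

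The members and all lists were chosen with earlier results of these data known. Named genes are the members, the other annexins, from each list the 2 with the largest ratio (either direction) and the 2 with most UMIs in the ASO-L1 comparison of classes, and the 3 most alike genes per member. Some genes that this rule names are not reported here. PDCD6, AHNAK, PLAU, CAPN2, CAV1, DYSF, PLSCR3, PLSCR4, XKR8, CPNE5, CPNE7 and CPNE9, which fall outside this rule, were named after their values were seen. Alternatives were other cell filters, totals, weights, depths, cuts and marker definitions, and cells without shared barcodes. Leaving shared barcodes out of SO-L1 alone, and stopping promoter stretches before exons, were added after the data were seen.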

Additional observations from a re-analysis of the deposited data

Results flagged for a closer look

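ANXA11 was at a ratio of 1.07 (1.02 to 1.11) in ASO-L1 over SO-L1 below 2% mitochondrial UMIs and at 0.905 (0.882 to 0.929) at 2% or more, on opposite sides of 1. The difference between the 2 classes was not tested, and neither ratio reaches 1.5-fold. Without shared barcodes the ratios were 0.603 and 0.876, on the same side, and after thinning they were 0.989 and 0.869.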

How the results depend on the processing

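Of 274 counts of members called under alternatives, 260 stayed within 1.5 times of the reported count, and 0 of 1096 member ratios reversed a call. Only ratios called as reported could be counted as reversed, and many of the 1096 were not called. Uncalled ratios that crossed 1 are thus not among them, such as ANXA11 between the ASO-L1 classes, from 1.48 to 0.854 without shared barcodes. The cause of the changes that follow was not tested. Without shared barcodes the lower members were 2 in ASO-L1 over SO-L1 below 2%, 2 in ASO-L1 IL24 cells and 2 in ASO-L1 TPRX1 cells. After thinning they were 0 in SO-L1 IL24 cells and 1 in ASO-L1 PLA2G2A cells. With each cell weighted equally, SO-L1 PLA2G2A cells had 1 lower and ASO-L1 PLA2G2A cells 1 higher. The higher members in ASO-L1 PLA2G2A cells were also 1 without the deepest 2% of cells, with scaling by the median ratio, from 2 marker UMIs and with cells of another marker left out, the last pair with 1 and 3 lower. Scaling gave 2 higher in ASO-L1 TPRX1 cells. The mean number of annexins per cell was 2.17 at 4000 UMIs and 4.43 at 15000 in SO-L1 below 2%, 1.65 and 3.82 in SO-L1 at 2% or more, 2.74 and 4.76 in ASO-L1 below 2%, and 1.81 and 3.90 in ASO-L1 at 2% or more, the same order of the 4 classes at each depth. ANXA1 ratios moved furthest, from 12.1 to between 4.32 and 16.6 for ASO-L1 over SO-L1 at 2% or more, from 36.6 to between 14.3 and 57.6 for cells below 2% over the others in SO-L1 and from 13.6 to between 11.7 and 30.4 in ASO-L1. Depth limits single cells: at 8000 UMIs, 1 UMI is more than the mean of ANXA3, ANXA4, ANXA6, ANXA7 and ANXA11 in each class. No paired analysis was possible because each group has 1 library.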

Other observations

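Barcodes under 1000 genes, left out above, also held annexin UMIs. ANXA1 was 115 CPM (106 to 125) in those of SO-L1 and 92.2 CPM (77.3 to 109) in those of ASO-L1, and ANXA6 was 32.7 CPM and 34.4 CPM. The ANXA1 intervals of the libraries overlap here, and 83.4% of these SO-L1 barcodes have a sequence that is also in ASO-L1.

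IL24 cells at 2% mitochondrial UMIs or more, 341 in ASO-L1, held 229 CPM of ANXA1 and 595 CPM of ANXA2, against 15.4 and 252 CPM in cells of that class with no marker. ANXA6 was 23.0 CPM against 30.7 CPM. The 12 such cells in SO-L1, 8 of them with a shared barcode, held 281 CPM of ANXA1 against 2.58 CPM.

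Among cells at 2% or more, the shallowest held the highest ANXA1 level. Below 10000 non-mitochondrial UMIs it was 54.4 CPM in SO-L1 and 109 CPM in ASO-L1, and from 30000 to 60000 it was 1.54 and 14.8 CPM. From 60000 UMIs upward ANXA1 was 5.49 CPM in SO-L1 and 49.1 CPM in ASO-L1.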
